A study of Bos taurus with 34 samples.

Results

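ATF4 and BOD1, 2 of the 10942 genes detected in peripheral white blood cells (PWBC) out of 27570 counted genes, varied together across 17 heifers. They were chosen by reading their levels and their correlation over all 17 PWBC libraries, so the closeness of the pair is a description of the choice and carries no test. In the deposited table ATF4 is ENSBTAG00000017462 and BOD1 is ENSBTAG00000034598. The animals were Angus-Simmental crossbred heifers that had gone through the same synchronization for fixed-time artificial insemination (AI), with semen of a single sire, before exposure to bulls. Blood was drawn at AI, before any outcome was known. Later palpation sorted the heifers into those pregnant to AI (AI-preg, n = 6), those pregnant to natural breeding (NB-preg, n = 6) and those that did not conceive (non-pregnant, n = 5). Each heifer gave 1 PWBC library of mRNA and 1 plasma library of small RNA, so the replicates are animals.

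ATF4 is a transcription factor of the bZIP class and the effector of the integrated stress response. When sensor kinases phosphorylate the translation factor eIF2, most protein synthesis slows while the ATF4 message is translated, and the protein then switches on genes for amino acid supply, redox balance and, under lasting stress, cell death. Because much of this control acts on translation, the level of ATF4 mRNA is not a measure of ATF4 protein. BOD1 helps chromosomes to attach to the spindle and inhibits the phosphatase PP2A with its B56 subunits at kinetochores.

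Read pairs counted on genes ranged from 4184999 to 67192941 per PWBC library, and the non-pregnant libraries were shallower (median 8175887) than the AI-preg (32535945) and NB-preg (19195350) libraries. Levels are in CPM, the count of a gene scaled by the library's total over detected genes, that is, genes at 2 CPM or more in at least 5 libraries. When the libraries were clustered on these genes by Euclidean distance, heifers 114 (AI-preg), 116 and 121 (both NB-preg) and 115 (non-pregnant) formed a branch of their own, so the main values are also given without these 4. Of markers for white cells, 5 of 9 for neutrophils, 1 of 6 for NK cells and 1 of 4 for eosinophils had an identifier, and all 7 of them were detected. None of the markers listed for T cells, monocytes or red cells had an identifier in the sources used here, so the identity of the cells was checked only in part.

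The level of ATF4 varied 34-fold between heifers. In AI-preg heifers its level was lowest at 109.7 CPM (heifer 119), had a median of 639 CPM and was highest at 1674 CPM (heifer 92). In NB-preg heifers the lowest level was 228 CPM (heifer 93), the median 494 CPM and the highest 3014 CPM (heifer 108). The 5 non-pregnant heifers had 2480.2 CPM (heifer 94), 425 CPM (heifer 101), 2063 CPM (heifer 107), 3374 CPM (heifer 113) and 99.3 CPM (heifer 115). Both the highest and the lowest of all 17 levels thus came from non-pregnant heifers, and the 3 groups overlapped over most of their range.

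BOD1 followed nearly the same order. It ranged from 9.61 to 91.6 CPM in AI-preg heifers (median 39.8 CPM) and from 15.5 to 138 CPM in NB-preg heifers (median 29.7 CPM). In non-pregnant heifers it stood at 113 CPM (heifer 94), 31.2 CPM (heifer 101), 98.3 CPM (heifer 107), 148 CPM (heifer 113) and 7.62 CPM (heifer 115). Heifers 113 and 108 held the top 2 places and heifers 119 and 115 the bottom 2 places for both genes. Within each group, the heifers stood in exactly the same order for ATF4 as for BOD1. Behind these values were 808 to 73779 counts of ATF4 and 62 to 3503 counts of BOD1 per library, so counting error was small beside the 19.4-fold range of BOD1.

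**Figure D1:**
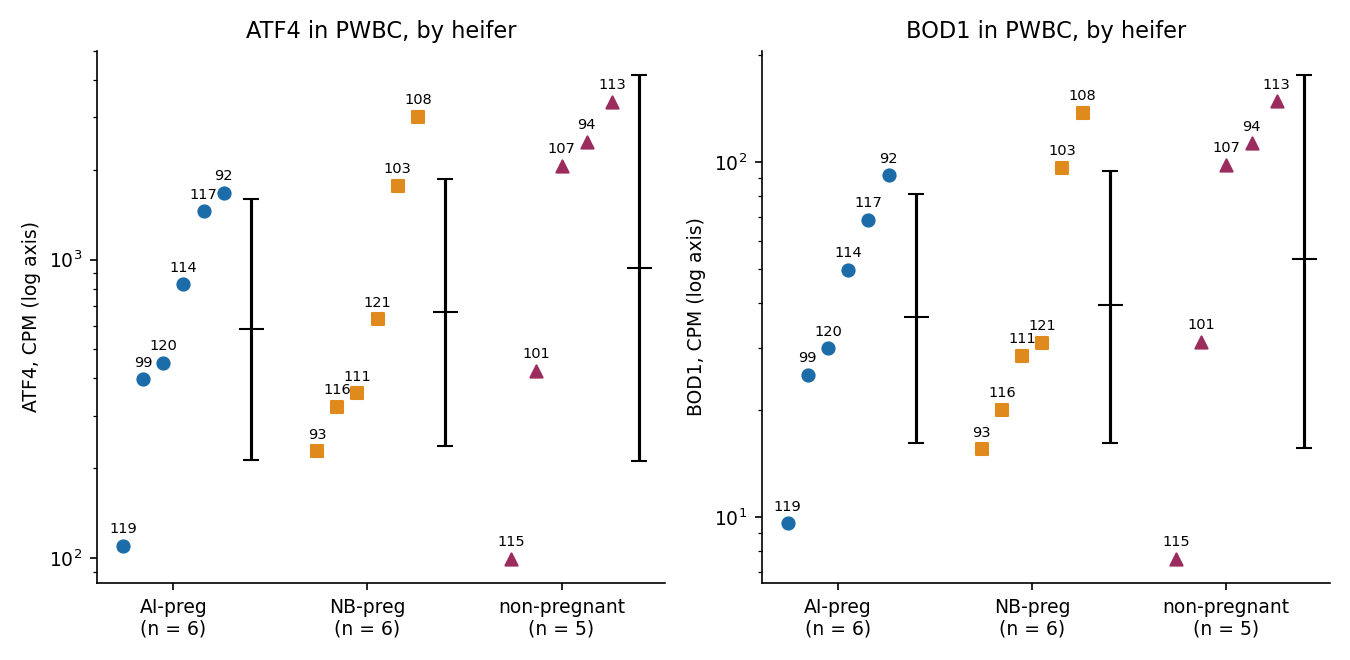
Level of ATF4 (left) and BOD1 (right) in PWBC of each heifer, in CPM on a log axis, by group; points are heifers with their numbers, and the black bars show the mean and SD of log2(CPM + 1) turned back to CPM. Heifer 113 is highest and heifer 115 lowest in both panels, and the 3 groups overlap.

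The spread over heifers was larger than that of most genes for both ATF4 and BOD1. On the log2(CPM + 1) scale the SD over 17 heifers was 1.60 for ATF4, which 6.14% of all genes exceeded, and 1.29 for BOD1, which 18.9% exceeded, against a median SD of 0.94 over all genes. In bulk samples such as these, fewer cells of a type and less RNA per cell cannot be told apart.

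The question of the design is whether the blood taken at AI differed by pregnancy outcome. For both genes the group means ran from non-pregnant through NB-preg down to AI-preg, and no neighbours in that order differed by more than their SD. By median CPM the pregnant groups stood the other way. ATF4 was at 639 CPM in AI-preg and 494 CPM in NB-preg, and BOD1 at 39.8 and 29.7 CPM. The mean log2(CPM + 1) of ATF4 was 9.88 ± 2.14 in non-pregnant (SD, n = 5), 9.38 ± 1.48 in NB-preg (SD, n = 6) and 9.19 ± 1.45 in AI-preg heifers (SD, n = 6). That of BOD1 was 5.76 ± 1.71, 5.34 ± 1.24 and 5.23 ± 1.13 in the same order.

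In edgeR's quasi-likelihood test across all detected genes, the fitted difference of ATF4 for pregnant minus non-pregnant heifers was -0.86 on the log2 scale (SE 0.69), with an adjusted p of 0.67. BOD1 differed by -0.67 (SE 0.60, adjusted p = 0.70 by edgeR). Against non-pregnant heifers, AI-preg heifers differed by -1.05 (SE 0.81) for ATF4 and -0.80 (SE 0.70) for BOD1, and NB-preg heifers by -0.68 (SE 0.81) and -0.54 (SE 0.70). Between AI-preg and NB-preg heifers the differences were -0.37 (SE 0.77) for ATF4 and -0.26 (SE 0.67) for BOD1. None of these 8 differences passed an adjusted p of 0.05, and with SE of this size a difference of either sign, or none, remains possible. The background was as empty, since edgeR called 0 of 10942 genes in each of the 4 contrasts (0%), beside 5.35%, 6.14%, 0.146% and 9.01% of genes at an unadjusted p under 0.05. DESeq2's Wald test called 5 genes for AI-preg against non-pregnant, 11 for NB-preg against non-pregnant, 0 between the pregnant groups and 43 for pregnant against non-pregnant, and ATF4 and BOD1 were not among them.

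Single heifers set the size of these differences. Without non-pregnant heifer 113, the pregnant minus non-pregnant difference was -0.45 for ATF4 and -0.32 for BOD1. Without NB-preg heifer 108, the AI-preg minus NB-preg difference turned from lower to higher, at 0.31 for ATF4 and 0.26 for BOD1. Without the 4 heifers of the separate branch, the pregnant minus non-pregnant difference was -0.99 for ATF4 and -0.81 for BOD1, with adjusted p of 0.43 and 0.44 by edgeR.

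Over all 17 heifers the Pearson correlation of ATF4 and BOD1 was 0.995 on log2(CPM + 1), with a Spearman rho of 0.990. These are the values the pair was chosen on. The r within groups was 0.997 in AI-preg (n = 6), 0.989 in NB-preg (n = 6) and 0.999 in non-pregnant heifers (n = 5), and rho was 1 in each group. Each gene was the other's closest partner among all detected genes over 17 heifers. Within groups this was not so, since BOD1 came at place 8 in AI-preg, 44 in NB-preg and 17 in non-pregnant heifers among the genes by r with ATF4. With 5 or 6 points many genes reached such values, and 183, 132 and 701 genes had an |r| over 0.98 with ATF4 inside the groups, against 10 genes over all heifers. Leaving out any 1 of the 17 heifers kept r between 0.994 and 0.997 and kept each gene in the first place for the other, and without the 4 heifers of the separate branch r was 0.997.

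**Figure D2:**
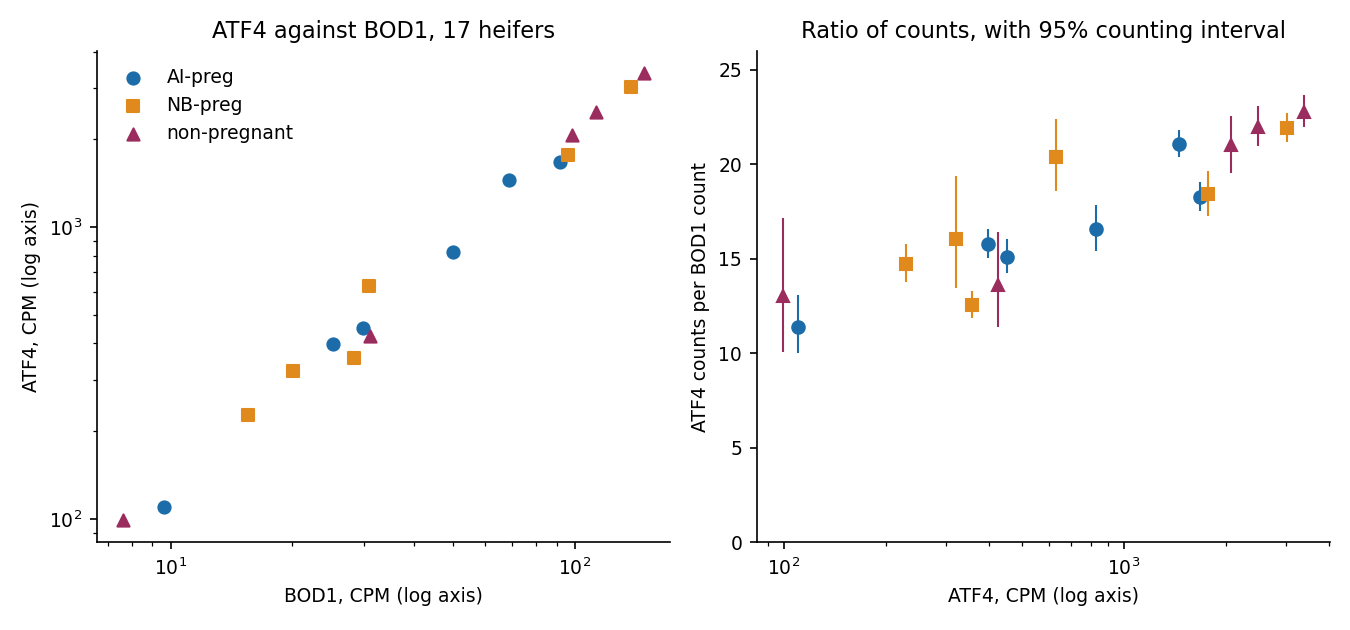
ATF4 against BOD1 in CPM on log axes (left) and the number of ATF4 counts per BOD1 count against ATF4 (right), with a point for each of 17 heifers and bars for the 95% interval that counting alone gives. The points lie along a single line at left, and at right the ratio runs from 11.4 in heifer 119 to 22.8 in heifer 113.

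The pair did not move in strict proportion. A slope of 1.203 related log2 ATF4 to log2 BOD1 over all heifers, and the slope was 1.23 within AI-preg, 1.16 within NB-preg and 1.21 within the non-pregnant group. The number of ATF4 counts per BOD1 count therefore climbed with the level. It was 18.4 to 22.8 in the 5 heifers with the most ATF4 and 11.4 to 16.1 in the 5 with the least. In heifer 113 the ratio was 22.8 (95% exact interval from counting alone 22.0 to 23.6) and in heifer 119 it was 11.4 (9.997 to 13.1), so these extremes lie apart by more than counting error. Gene lengths were not at hand, so the ratio compares heifers with each other and says nothing of which message had more copies.

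Between groups the ratio did not differ detectably. Its mean log2 was 4.01 ± 0.30 in AI-preg, 4.09 ± 0.30 in NB-preg and 4.17 ± 0.40 in non-pregnant heifers (SD). The difference was -0.12 for pregnant minus non-pregnant (exact permutation test, two-sided, over 6188 arrangements, p = 0.50), and the other 3 contrasts lay between -0.16 and -0.08 with exact permutation p of 0.46, 0.72 and 0.64. All 4 had the same p of 0.72 after adjustment over the 4 exact permutation tests. The pair was chosen for its high r over all 17 heifers, which favours a ratio that varies little (SD of its log2 0.32). The choice therefore leaned toward a small difference between groups, and these tests cannot show that the groups share 1 ratio.

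The distribution of r over all genes puts the partners in context. The median r with ATF4 over 10941 other genes was 0.07, with quartiles of -0.50 and 0.66 and 52.9% of genes above 0, and for BOD1 the median was 0.10. An r over 0.9 with ATF4 was reached by 717 genes (6.55%) and an r under -0.9 by 170 genes (1.55%). Over 0.95, 193 genes passed with ATF4 (1.76%) and 210 with BOD1 (1.92%), and 170 genes passed with both, which is 88.5% of the ATF4 set without BOD1 and 81.3% of the BOD1 set without ATF4. All these correlations share the same 17 libraries and depths.

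**Figure D3:**
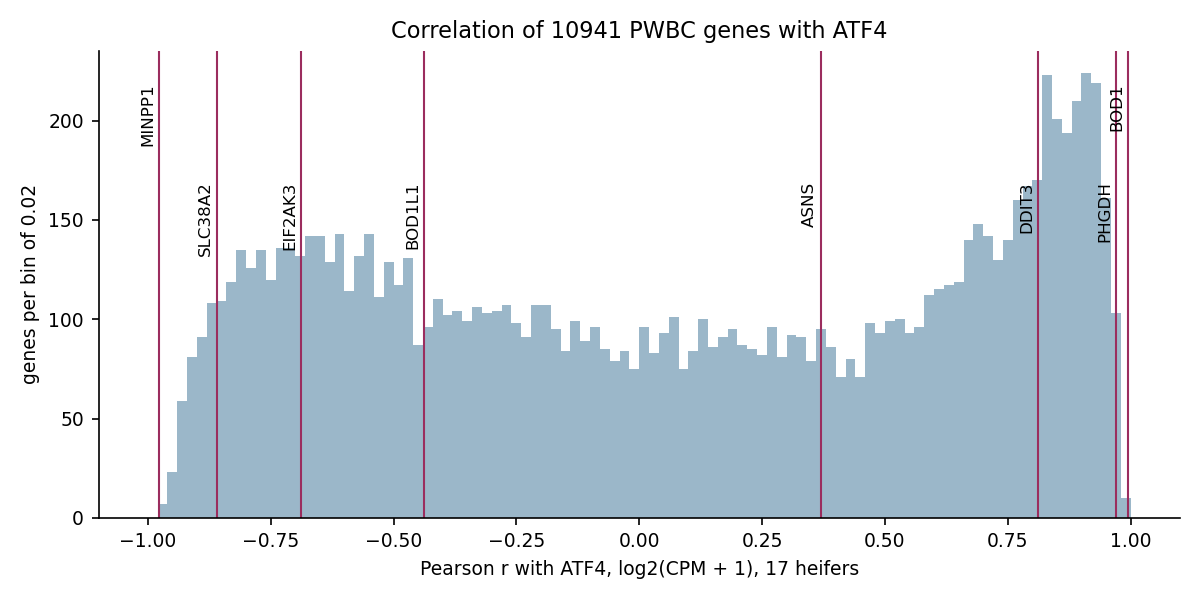
Number of detected PWBC genes by their Pearson r with ATF4 over 17 heifers, in bins of 0.02, with lines at named genes. BOD1 stands at the right edge at 0.995 and MINPP1 at the left edge at -0.977, while the ATF4 targets ASNS (0.37) and SLC38A2 (-0.86) lie far from PHGDH (0.97).

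At an |r| over 0.98, ATF4 had 10 partners (0.0914% of genes) and BOD1 had 13 (0.119%), all of them positive. Past that limit with both genes were ANP32A, RABEPK, TMEM256, NOSIP and COMMD7. ANP32A, a nuclear protein that like BOD1 is known as an inhibitor of PP2A, had an r of 0.986 with ATF4 and 0.988 with BOD1. It ran from 116 to 487 CPM in AI-preg, 146 to 635 CPM in NB-preg and 77.8 to 585 CPM in non-pregnant heifers, an 8.07-fold range on CPM + 1 that is narrower than that of ATF4. TMEM256, a small membrane protein, had an r of 0.984 with ATF4 over a far wider range, from 2.21 CPM in heifer 115 to 674 CPM in heifer 113. The Rab9 effector RABEPK (0.984), the eNOS-binding ubiquitin ligase NOSIP (0.981) and the COMM domain protein COMMD7 (0.981) completed the set.

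ATF4 alone passed with the vesicle tethering subunit TRAPPC2L (0.983), the growth factor VEGFB (0.983), the ribosomal protein RPL34 (0.982) and the Fanconi anemia repair protein FANCG (0.981). BOD1 alone passed with the RhoGAP protein GMIP (0.984), the splicing regulator RBM4 (0.983), the translation initiation subunit EIF3D (0.983), the chaperone adaptor PIH1D1 (0.981), the histone deacetylase HDAC3 (0.981), the kinase MAP3K12 (0.981) and the peptide transporter TAP1 (0.9801). The limit falls in a dense part of the ranking. For ATF4, COMMD7 was just inside at 0.9807 and the zinc finger factor THAP11 just outside at 0.9799. The number of partners of ATF4 rose from 10 to between 16 and 21 without any 1 of heifers 114 and 120 (AI-preg), 116 and 121 (NB-preg) or 101 (non-pregnant). That of BOD1 moved from 13 to 25 without AI-preg heifer 120 and to 8 without non-pregnant heifer 113 or 115. Without the 4 heifers of the separate branch, 51 genes passed with ATF4 and 43 with BOD1.

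The order changed when genes were ranked by how little their log2 ratio to ATF4, taken on CPM + 1, varied. That ratio varied least for RABEPK (SD 0.28 over 17 heifers), then TRAPPC2L (0.30), NOSIP (0.31), FANCG (0.33) and THAP11 (0.33). BOD1 came at place 6 (0.35). The bZIP factor ATF6B, a sensor of endoplasmic reticulum stress, followed at place 7 (0.36). The added 1 narrows the range of genes with low levels, and RABEPK stood at 0.74 CPM and NOSIP at 1.60 CPM in heifer 115. The order is therefore not one of strict proportion. On counts alone the SD of the log2 ratio of ATF4 to BOD1 was 0.32, and the other genes were not ranked that way.

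No gene reached -0.98 with ATF4 or BOD1 (0% of genes for both). The lowest r with ATF4 belonged to MINPP1 (-0.977), a phosphatase of inositol polyphosphates, and its level ran from 10.2 CPM in heifer 108 to 79.9 CPM in heifer 119. RNF125 (-0.968), a ubiquitin ligase of antiviral signalling, and EFR3A (-0.965), which anchors a lipid kinase at the plasma membrane, came next among genes with a symbol, beside ENSBTAG00000008755 (-0.968) and ENSBTAG00000016199 (-0.967). For BOD1 the 5 lowest were MINPP1 (-0.969), EFR3A (-0.960), RNF125 (-0.959), ENSBTAG00000008755 (-0.956) and the ankyrin repeat protein ANKRD46 (-0.954). Inside the groups the r of MINPP1 with ATF4 was -0.982, -0.976 and -0.986.

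**Figure D4:**
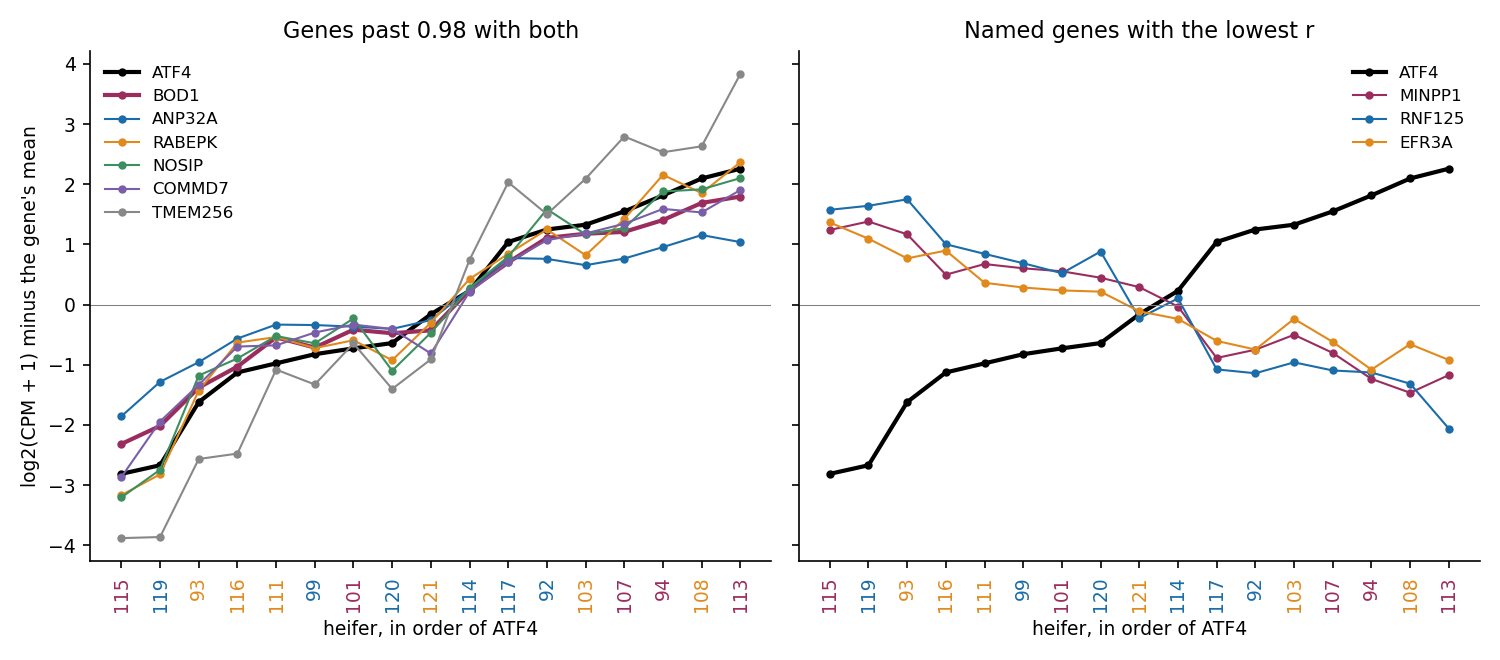
log2(CPM + 1) minus the gene's mean over 17 heifers, with heifers ordered by ATF4 and coloured by group as in the plot of levels. At left the 5 genes past 0.98 with both ATF4 and BOD1 climb with them, TMEM256 most steeply and ANP32A least, and at right MINPP1, RNF125 and EFR3A descend.

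ATF4 and BOD1 also lay along the main axis of variation of these libraries. The first principal component of all other detected genes held 45.4% of their variance and had an r of 0.967 with ATF4 and 0.976 with BOD1. The 7 heifers with the most ATF4, which were heifers 113, 108, 94, 107, 103, 92 and 117 at 1449.7 CPM or more, were also the 7 that clustering by correlation distance set apart from the other 10. They were 3 non-pregnant heifers and 2 of each pregnant group, and the next heifer in order had 826 CPM. After the component was removed from every gene by regression, r between ATF4 and BOD1 was 0.922, BOD1 stood at place 2 among the genes for ATF4, and ATF4 stood at place 1 for BOD1. What remained of their spread was small, with an SD of 0.41 for ATF4 and 0.28 for BOD1 on the log2 scale.

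The genes that act upstream of ATF4 did not share a direction. Of 17 listed sensors and regulators of the integrated stress response, 5 had an identifier and all 5 were detected, and 4 of them had a positive r with ATF4. DELE1, which relays mitochondrial stress to an eIF2 kinase, had the highest r at 0.94 and ranged from 2.74 to 184 CPM. The eIF2B subunits EIF2B2 (0.88), EIF2B5 (0.78) and EIF2B4 (0.78) followed. EIF2AK3, the kinase that senses unfolded proteins in the endoplasmic reticulum, went the other way at -0.69 and ranged from 27.2 to 210 CPM. The median r of the 5 was 0.78, beside 0.07 over all genes. These 5 could be read because the study's own result tables, which include its coexpressed pairs, named them. All genes are therefore not a matched background for this median.

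The known targets of ATF4 were as divided. Of 45 listed targets, 9 had an identifier and were detected, with a median r with ATF4 of 0.40, and 6 of the 9 were positive. PHGDH, the entry enzyme of serine synthesis, came closest with 0.97 and ran from 7.005 to 495 CPM, and the factor ATF5 (0.90) and the stress protein NUPR1 (0.89) followed, with levels of at most 19.8 CPM and 15.1 CPM. DDIT3, also known as CHOP and an inducer of cell death, had an r of 0.81. ASNS, the asparagine synthetase that is a classic readout of ATF4, stood at only 0.37 and varied between 4.18 and 49.1 CPM. ATF3 had 0.40. The amino acid transporter SLC38A2, at 339 to 1831 CPM, had the lowest r at -0.86, before PSPH (-0.32) and CTH (-0.15).

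Other stress and bZIP genes gave a similar mixture. Of 17 listed genes of the other arms of the unfolded protein response, 3 could be read, namely SEL1L (-0.69), PDIA4 (-0.57) and CALR (0.49). Among 25 bZIP factors, 5 could be read. ATF6B had an r of 0.97, JUND of 0.92, JUNB of 0.84, FOSL2 of 0.26 and CREM of -0.08. Of 15 immediate early and heat shock genes, 2 could be read, IER2 at 0.94 and HSPH1 at -0.34.

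On the side of BOD1, 4 of 14 listed genes of PP2A-B56 and its regulators had an identifier. PPP2R1A, the scaffold subunit, had an r of 0.95 with BOD1, and the B56 subunit PPP2R5D had 0.72. SET, an inhibitor of PP2A, had -0.69, and BOD1L1, the larger relative of BOD1, had -0.38 over a range of 14.9 to 209 CPM. Of 17 kinetochore and mitosis genes, 5 could be read, and they spread from PLK1 (0.83), the mitotic kinase, to SGO2 (-0.90), which guards cohesion at centromeres, with MKI67 and CDCA8 both at -0.21 and TOP2A at -0.69. PLK1 (0 to 22.3 CPM), PPP2R5D (0 to 27.7 CPM) and PPP2R1A (0.24 to 77.6 CPM) were at or near the floor at their lowest. Over all genes the median r with BOD1 was 0.10, with quartiles of -0.47 and 0.68. These listed genes, too, could be read only if the study's own result tables named them. None of 9 listed subunits of the SET1 histone methyltransferase complexes, with which BOD1 copurifies, had an identifier.

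**Figure D5:**
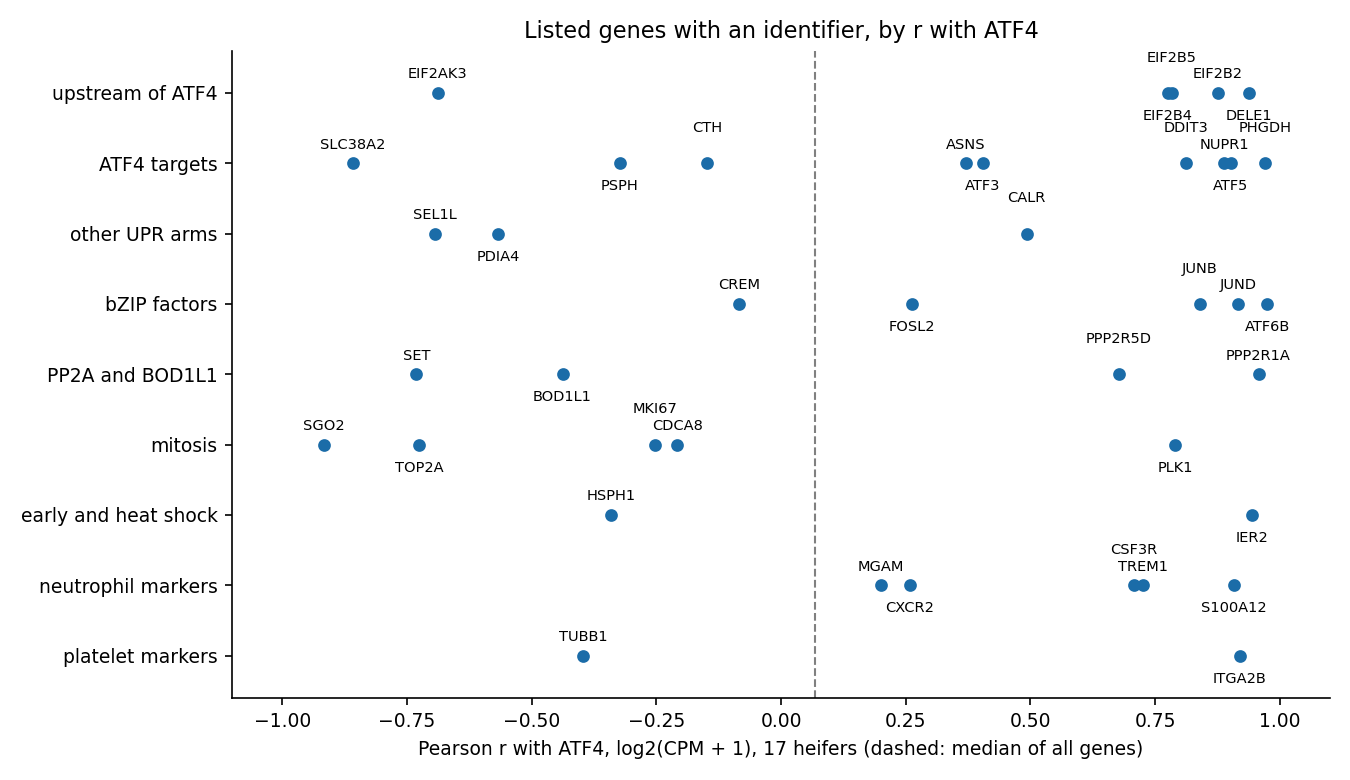
Pearson r with ATF4 over 17 heifers for the listed genes that had an identifier, by list; each point is a gene and the dashed line is the median of all genes (0.07). The ATF4 targets run from SLC38A2 at -0.86 to PHGDH at 0.97. Listed genes could be read only if the study's own result tables named them.

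None of the listed genes passed an adjusted p of 0.05 between groups by edgeR, in either direction and in any of the 4 contrasts, against 0% of all genes. The medians for pregnant minus non-pregnant were -0.58 over the 5 upstream genes and -1.19 over the 9 targets, beside 0.11 over all genes. Genes of both lists could be read only if the study's own result tables named them. All genes are therefore not a matched background for these medians, and no shift of either list can be read from them. The targets went both ways, with 5 of 9 below 0 and the others above it. Among the latter were CTH at 2.05 (SE 1.00), PSPH at 0.52 (SE 0.40) and SLC38A2 at 0.44 (SE 0.40). CTH lay near the floor, at 0 to 11.4 CPM over all heifers, with a median of 0.37 CPM in the non-pregnant group. DDIT3 was -1.24 (SE 0.61, adjusted p = 0.55 by edgeR), PHGDH was -1.19 (SE 0.74), ATF3 was -1.55 (SE 0.51), ASNS was 0.23 (SE 0.46) and EIF2AK3 was 0.61 (SE 0.42). An unadjusted p under 0.05 in that contrast was seen for 2 of the 9 targets, ATF3 and ATF5, against 9.01% of all genes. ATF5 was also low, at 0 to 19.8 CPM.

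Ribosomal protein genes, a list added after the values were seen, ran with both genes. All 65 entries with a symbol, some of which share a symbol, had a positive r with ATF4, beside 52.9% of all genes. Their r ran from 0.47 for an entry of RPL39 to 0.98 for RPL34. The median was 0.91, beside 0.07 over all genes, and 35 of 65 were over 0.9, beside 6.55% of all genes. Their summed level had an r of 0.970 with ATF4. Symbols were known mainly for genes in the study's own result tables, among them its coexpressed pairs and its differentially expressed genes. Named genes are therefore not a neutral sample of the detected ones.

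The correlation of cell type markers with ATF4 ranged from -0.40 to 0.92 among those described here. All 5 neutrophil markers that could be read were positively correlated with ATF4. Their r ran from MGAM (0.20) and CXCR2 (0.26) through CSF3R (0.71) and TREM1 (0.73) to S100A12 (0.91). None was at 0 in any heifer, but the lowest levels of CXCR2 (0.04 CPM), CSF3R (0.40 CPM) and MGAM (0.44 CPM) were near the floor. Their summed level ran from 78.2 to 4133 CPM in AI-preg, 221 to 2870 CPM in NB-preg and 205 to 13021 CPM in non-pregnant heifers, and had an r of 0.889 with ATF4. All 5 had lower fitted levels in pregnant than in non-pregnant heifers, from -1.91 for TREM1 to -4.20 for CSF3R, with an adjusted p of 0.51 to 0.54 by edgeR. The unadjusted p was under 0.05 for 5 of 5, beside 5.07% of all genes that were lower at that p. A marker could be read only if the study's own result tables named it, and these include its differentially expressed genes. The 5 are thus not a neutral sample of neutrophil markers, and the share over all genes is not a matched background. By DESeq2, CSF3R and MGAM passed the adjusted threshold in that contrast, at -4.37 and -2.85, as did the eosinophil marker IL5RA at -1.65. The NK marker NKG7 had an r of 0.72 with ATF4 and IL5RA of 0.41. Of 6 platelet markers 2 could be read, ITGA2B (0.92) and TUBB1 (-0.40). The part of cell makeup in the levels of ATF4 and BOD1 was not tested.

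No relation of the pair to depth was detected over all heifers. The r of log2(CPM + 1) with the log10 library total was -0.03 for ATF4 (permutation p = 0.90) and -0.03 for BOD1 (permutation p = 0.90), with a rho of -0.06 (permutation p = 0.81) and -0.11 (permutation p = 0.67), and all 4 had an adjusted p of 0.90. Without the 2 heifers farthest from the median total, AI-preg 99 and non-pregnant 101, r was -0.05 and -0.03. Within AI-preg and NB-preg heifers r was 0.01 and -0.28 for ATF4 and -0.05 and -0.21 for BOD1, while the non-pregnant group, with 5 heifers, gave 0.63 and 0.60. For both genes, rho was -0.03 within AI-preg, -0.26 within NB-preg and 0.9 within non-pregnant heifers. The values within groups were not tested. Without the 4 heifers of the separate branch, rho for BOD1 was -0.59 (permutation p = 0.038, unadjusted).

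The RefSeq table of assembly ARS-UCD2.0 places ATF4 and BOD1 on different chromosomes. The gene next to ATF4, RPS19BP1, had an r of 0.934 with it, and ATP6V0E1, 5 protein-coding genes away from BOD1, had 0.768 with BOD1. Over all genes, 6.55% had an r over 0.9 with ATF4, and the upper quartile of r with BOD1 was 0.68. Only neighbours that the study's own result tables named could be read, so neither region was surveyed. A part of position was not tested.

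In plasma, both messages were at the edge of detection. ATF4 had 0 to 30 counts per small RNA library, above 0 in 15 of 17 libraries, and 98 counts in all among totals of 1073910 to 17024777. The highest level was 2.53 CPM, in NB-preg heifer 93, whose PWBC level was among the lowest. BOD1 had a single count in AI-preg heifers 92 and 119 and none in the other 15 libraries. No comparison between groups was made at these counts.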

How the data were processed

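PWBC mRNA and plasma small RNA of 17 heifers were read from the gene counts deposited by the authors. Per the authors, reads were aligned to ARS-UCD1.2 with HISAT2 2.1.0, reads with several alignments, duplicates or 5 or more mismatches were removed, and featureCounts (1.6.0 in the submitters' processing notes, a later release in the authors' code) counted read pairs by strand (PWBC), without normalization. Heifers were grouped by the deposited classification. The members and gene lists were chosen with earlier results of these data known.

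Genes at 2 CPM or more in 5 libraries were kept (10942), and totals were sums over them. Groups were compared in 4 contrasts with edgeR 4.0.16 (quasi-likelihood, robust, library totals as scaling, Benjamini-Hochberg adjustment, R 4.3.3), tested on simulated data. DESeq2 1.42.0 was an alternative. For coexpression, r is Pearson's and was taken on log2(CPM + 1), as was the SD of each gene's ratio to ATF4. Ratios were compared by exact permutation and depth by 100000 permutations, two-sided (Python 3.11.15, numpy 2.4.6, pandas 2.3.3, scipy 1.17.1). Intervals cover counting error only. Alternatives were other scaling, filters, Spearman's rho, centring on groups, thinning to the lowest total and each heifer left out.

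Symbols came from the supplementary tables, for 2306 of 10942 kept genes, and 44 of 211 listed symbols were matched. The rule named ATF4, BOD1, the genes with the 10 highest and 5 lowest r with each, the 5 with the steadiest ratio to ATF4, those past 0.98 with both, the extremes of each list, and DDIT3, ASNS, TRIB3, ATF3, EIF2AK3, EIF2AK4, PPP1R15A and BOD1L1. Of these TRIB3, EIF2AK4 and PPP1R15A had no identifier and were not analysed here. Other listed genes, MAP3K12, TAP1, the ribosomal protein genes and the neighbours were named after their values were seen. The list of 1 further cell type is not reported.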

Additional observations from a re-analysis of the deposited data

How the results depend on the processing

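No paired analysis was possible because the groups compared hold different heifers, and the shared heifer numbers link only the PWBC and plasma libraries of an animal. ATF4 and BOD1 were called in none of the 184 values that other settings gave for them, with a lowest adjusted p of 0.29 by edgeR or DESeq2. Scaling by DESeq2's size factors moved the median of all genes by -0.24 for pregnant minus non-pregnant and by at most -0.31 in any contrast, and the differences of ATF4 and BOD1 stayed negative under it. With each heifer left out in turn, the AI-preg minus NB-preg difference ranged from -0.70 to 0.31 for ATF4 and from -0.58 to 0.26 for BOD1. The difference of the log2 ratio ranged from -0.19 to 0.011 for NB-preg and from -0.27 to -0.06 for AI-preg against non-pregnant, and from -0.17 to 0.017 for AI-preg against NB-preg. In the same fits the number of genes called stayed at 0.

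Called genes rose from 0 to 5, 11 and 43 of 10942 under DESeq2's Wald test, for AI-preg, NB-preg and all pregnant against non-pregnant heifers. Of the 44 listed genes, 1, 2 and 3 were among them. They were CSF3R in all of these contrasts, IL5RA in the last 2 and MGAM in the last. Without a filter on low counts 3 genes were called for pregnant against non-pregnant. Leaving out the 4 heifers of the separate branch was an alternative chosen after seeing the data. It called 27 of 10942 genes for AI-preg and 94 for pregnant against non-pregnant. Listed genes among them were CXCR2 in the first contrast, and CXCR2, CSF3R, MGAM and the bZIP factor CREM in the second. Listed genes could be read only if the study's own result tables, which include its differentially expressed genes, named them. All genes are therefore not a matched background for these counts. The cause of the rise in called genes was not tested.

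The number of genes past 0.98 was the least stable result. From 10 with ATF4, 13 with BOD1 and 5 with both, it changed to 4, 6 and 1 by Spearman's rho, to 28, 30 and 15 with values centred on groups, to 205, 216 and 175 at a limit of 0.95, and to 51, 43 and 35 without the 4 heifers. TMM factors gave 7 with BOD1 and 3 with both, and DESeq2's size factors 7 with BOD1. Leaving out single heifers gave 7 to 21 with ATF4, 8 to 25 with BOD1 and 2 to 12 with both. The r of ATF4 and BOD1 moved only with the first component removed (0.922, also chosen after seeing the data), and BOD1 was the closest partner of ATF4 in 24 of 25 other settings. Against depth, single heifers moved r from -0.18 to 0.061 for ATF4 and from -0.19 to 0.067 for BOD1, and rho from -0.25 to 0.056 and from -0.30 to 0. Without the 4 heifers rho for BOD1 was -0.59 (permutation p = 0.038). Depth limits BOD1 most in heifer 115, with 62 counts.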
